A study of Mus musculus with 9 samples.

Results

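The PI3K, Foxo3 and mTOR signalling genes described here are Pik3ca, Pdpk1, Akt1, Foxo3, Tsc1, Tsc2, Mtor and Rptor, 8 of the 19938 genes with a named row on the array. They were chosen by symbol from a list of 9, each through a row with exactly 1 gene symbol in the platform's probe table. The ninth, the S6 kinase gene Rps6kb1, was not analysed here. RNA was measured in 9 single oocytes on Affymetrix Mouse Gene 1.0 ST arrays, which read probes along the whole transcript, with 1 oocyte per array. All came from 2-month-old unmated females of the ICR strain, primed with PMSG (10 IU) and given hCG (10 IU) after 46 hours, and all were at metaphase II. In 3 oocytes the cell was lysed in NuGEN direct lysis buffer and the crude lysate was amplified, in 3 the RNA was purified with Arcturus PicoPure columns, and in 3 with Qiagen RNeasy Mini columns, and all were amplified with a NuGEN One-Direct kit. Each condition drew 1 to 3 cells from each of 3 mice, and the labels do not tie oocytes to mice, so p-values cover the spread among these 9 oocytes, and oocytes from 1 mouse may be among them.

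In the oocyte, the receptor Kit activates phosphatidylinositol 3-kinase, whose lipid product recruits the kinases Pdpk1 and Akt to the membrane. Akt phosphorylates the transcription factor Foxo3, which then leaves the nucleus, and relieves the brake that the Tsc1-Tsc2 complex sets on the mTOR complex of Mtor and Rptor, which promotes growth and translation through S6 kinase. In mice, loss of Foxo3, Tsc1 or Tsc2 in the oocyte awakens the resting follicles early. These proteins are controlled mostly by phosphorylation, which an expression array does not measure, and in a metaphase II oocyte the RNA is a store left from growth, since transcription has stopped.

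The values are the authors' normalized log2 expression values. The background of an array was taken as the 95th percentile of its 1231 receptor genes for odours, pheromones and tastes, and ran from 7.23 to 7.29 with direct lysis, from 7.19 to 7.26 with PicoPure and from 7.27 to 7.48 with RNeasy. Of 12 oocyte markers, 11 exceeded background on every array, and the list had a summed level, as log2, of 15.75 to 15.85 in crude lysates and 15.77 to 15.80 in column-purified RNA. Of 12 cumulus and granulosa cell markers, 2 did so (Foxl2 and Nr5a2) and 6 lay above it on none, with summed levels of 11.25 to 11.91 in crude lysates and 11.31 to 11.62 in column-purified RNA. For 6 blood and immune markers these numbers were 1 and 4, with sums of 9.37 to 9.49 and 9.28 to 9.48, and for 4 oviduct markers 1 and 2, with sums of 9.50 to 9.94 and 9.41 to 9.62. The part of these cells in the results below was not tested.

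Transcripts of 6 of the 8 genes lay above background on all 9 arrays, where 43.1% of all genes did. Tsc2 and Rptor lay above it on 8 arrays and fell short on the array of RNeasy replicate 3. No gene of the 8 passed the test in any comparison of preparations (limma, adjusted p under 0.05 over all 19938 genes). The smallest adjusted p was 0.314 (Rptor) for crude lysates against column-purified RNA, 0.434 (Mtor) for PicoPure against RNeasy, 0.28 for direct lysis against RNeasy and 0.448 for direct lysis against PicoPure. The spread between oocytes was wide for Pik3ca and narrow for Foxo3.

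**Figure D1:**
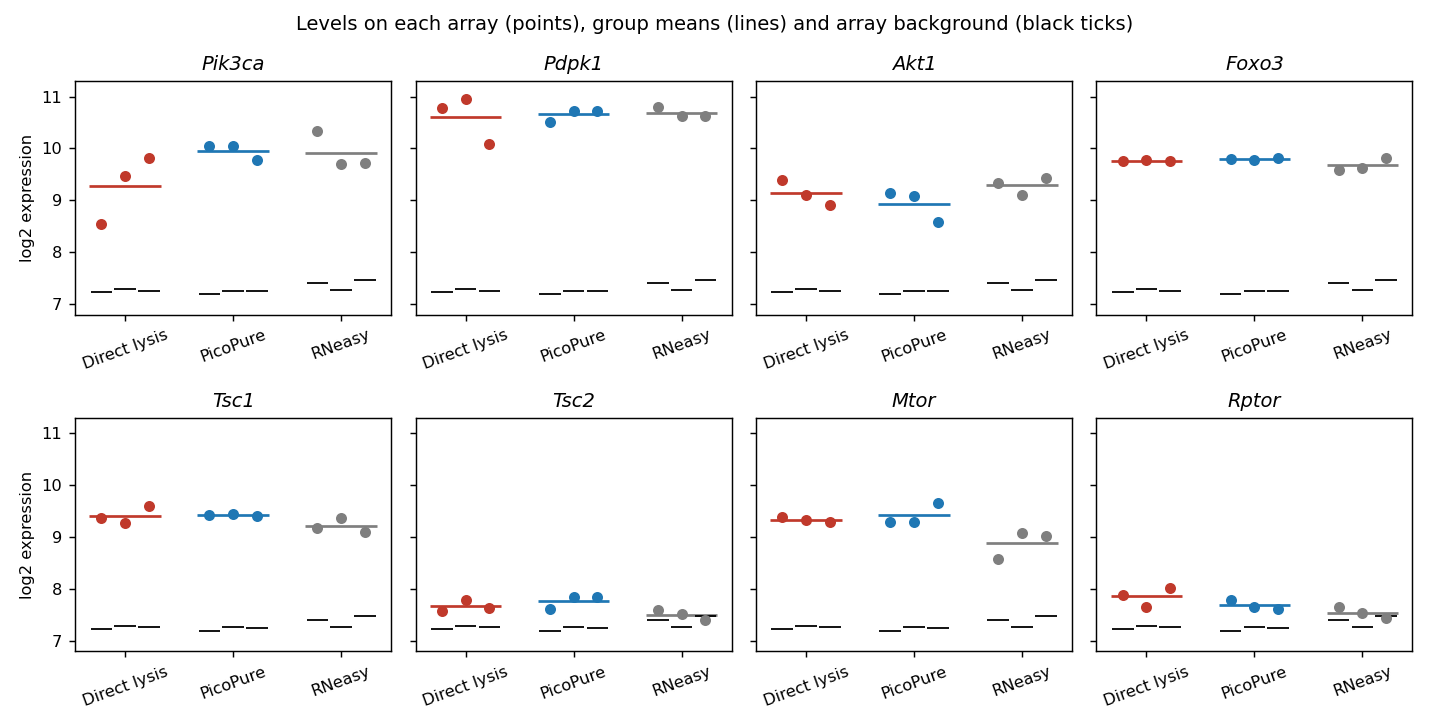
Log2 expression of the 8 genes in each oocyte (points), with direct lysis left, PicoPure in the middle and RNeasy right. Coloured lines are means of 3 oocytes and black ticks are the background level of each array. Pik3ca spans 8.54 to 9.82 in direct lysis, Foxo3 lies between 9.58 and 9.82 on all 9 arrays, and Tsc2 and Rptor lie close to background.

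Pik3ca encodes a catalytic subunit of PI3K. Its level was 8.54, 9.47 and 9.82 in the directly lysed oocytes, 10.04, 10.04 and 9.77 with PicoPure and 10.33, 9.70 and 9.72 with RNeasy. The first 2 directly lysed oocytes lay below all 6 purified ones, while the third lay among them. Over the 9 arrays the level spanned 1.80 log2 units, or 3.48-fold. The mean was 9.28 ± 0.66 (SD, n = 3) in crude lysates and 9.94 ± 0.25 (SD, n = 6) in column-purified RNA, a difference of -0.66 ± 0.28 (SE; 95% interval -1.30 to -0.02) that did not pass after adjustment (limma, adjusted p = 0.341). Without direct lysis replicate 1 the difference was -0.29 (adjusted p = 0.592). The pooled SD between oocytes prepared alike was 0.44, larger than that of 86.9% of the 8597 genes above background on all arrays.

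Pdpk1, the kinase that phosphorylates Akt on its activation loop, had 10.78, 10.95 and 10.08 in the directly lysed oocytes, 10.52, 10.73 and 10.73 with PicoPure and 10.79, 10.63 and 10.62 with RNeasy. The third directly lysed oocyte was the lowest of the 9 and the second the highest, so that the low oocyte for Pdpk1 was not the low oocyte for Pik3ca. Crude lysates averaged 10.60 ± 0.46 (SD, n = 3) and column-purified RNA 10.67 ± 0.10 (SD, n = 6), with a difference of -0.07 (95% interval -0.48 to 0.35). Without direct lysis replicate 3 this difference was 0.19, and neither value passed (limma, adjusted p = 0.89 and 0.442).

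Akt1, the kinase at the centre of the cascade, had 9.40, 9.10 and 8.92 with direct lysis, 9.14, 9.08 and 8.59 with PicoPure and 9.34, 9.10 and 9.44 with RNeasy. All 3 preparations overlapped, and the lowest oocyte was PicoPure replicate 3. The difference between PicoPure and RNeasy was -0.35 ± 0.18 (SE; 95% interval -0.78 to 0.07; limma, adjusted p = 0.683), and that between crude lysates and column-purified RNA was 0.03 (95% interval -0.34 to 0.39). The interval of the first thus includes a level 1.71-fold lower with PicoPure.

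Foxo3, the transcription factor that holds follicles at rest, was the steadiest of the 8. Its level was 9.75, 9.77 and 9.76 with direct lysis, 9.79, 9.78 and 9.82 with PicoPure and 9.58, 9.63 and 9.81 with RNeasy. The oocytes of RNeasy replicates 1 and 2 were the lowest, and RNeasy replicate 3 lay among the PicoPure values. The whole range over 9 oocytes was 0.24 log2 units, or 1.18-fold, and 7.9% of the genes above background on all arrays had a smaller pooled SD than its 0.07. Between crude lysates and column-purified RNA the difference was 0.03 ± 0.06 (SE), with a 95% interval of -0.12 to 0.17, so that a shift of more than 1.12-fold upward or 1.09-fold downward lay outside it. PicoPure exceeded RNeasy by 0.13 (95% interval -0.04 to 0.29; limma, adjusted p = 0.725), and by 0.04 with a further quantile normalization. The 3 directly lysed oocytes lay just below the 3 PicoPure oocytes, by 0.04 on average, where 7.67% of all genes were lower without overlap in this comparison. Under a further quantile normalization the direction turned, with direct lysis higher by 0.16, and the difference passed in neither form (limma, adjusted p = 0.865 and 0.539).

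Tsc1 and Tsc2 encode the partners that together switch off the GTPase Rheb, the activator of mTOR complex 1. Tsc1 had 9.36, 9.27 and 9.59 with direct lysis, 9.43, 9.45 and 9.41 with PicoPure and 9.17, 9.36 and 9.09 with RNeasy. Each PicoPure oocyte lay above each RNeasy oocyte, by 0.22 ± 0.10 (SE) on average (limma, adjusted p = 0.654), and the directly lysed ones overlapped both. With a further quantile normalization this Tsc1 difference between PicoPure and RNeasy was 0.1 ± 0.09 (SE). Tsc2 had 7.58, 7.78 and 7.63 with direct lysis, 7.61, 7.84 and 7.84 with PicoPure and 7.60, 7.52 and 7.40 with RNeasy. PicoPure again lay above RNeasy without overlap, by 0.25 ± 0.10 (SE; limma, adjusted p = 0.556), with the 2 groups separated by a narrow gap between 7.60 and 7.61. Tsc2 was between 0.07 below and 0.58 above its array's background, and background was highest on 2 of the RNeasy arrays. With every value raised to background the Tsc2 difference was 0.23. Neither Tsc gene differed between crude lysates and column-purified RNA by more than its error, at 0.09 ± 0.09 for Tsc1 and 0.03 ± 0.08 for Tsc2 (SE).

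Mtor, the kinase itself, had 9.38, 9.32 and 9.30 with direct lysis, 9.30, 9.30 and 9.66 with PicoPure and 8.57, 9.07 and 9.03 with RNeasy. All 3 RNeasy oocytes were lower than the other 6, and the first of them was the lowest. The share of all genes with this order was not counted. The group means were 9.33 ± 0.04 with direct lysis, 9.42 ± 0.21 with PicoPure and 8.89 ± 0.28 with RNeasy (SD, n = 3 each). PicoPure exceeded RNeasy by 0.53 ± 0.15 (SE; 95% interval 0.18 to 0.88), or 1.44-fold, and direct lysis exceeded RNeasy by 0.45 ± 0.15, or 1.36-fold. These 2 comparisons share the RNeasy oocytes. Their unadjusted p was 0.00872 and 0.02, and neither passed over all genes (limma, adjusted p = 0.434 and 0.28). Without RNeasy replicate 1 the differences were 0.37 and 0.28. Direct lysis and PicoPure differed by -0.09 (95% interval -0.44 to 0.27).

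Rptor, the subunit that brings substrates to mTOR complex 1, had 7.89, 7.66 and 8.02 with direct lysis, 7.79, 7.66 and 7.62 with PicoPure and 7.66, 7.53 and 7.44 with RNeasy. Direct lysis held the 2 highest oocytes and RNeasy the 2 lowest, and direct lysis and RNeasy met at 7.66. Crude lysates averaged 7.85 ± 0.18 (SD, n = 3) and column-purified RNA 7.62 ± 0.12 (SD, n = 6), a difference of 0.24 ± 0.09 (SE; 95% interval 0.02 to 0.46; limma, adjusted p = 0.314). Against RNeasy alone the difference of direct lysis was 0.31 ± 0.11 (adjusted p = 0.286). Rptor lay between 0.04 below and 0.76 above background, so the values have little room above it.

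**Figure D2:**
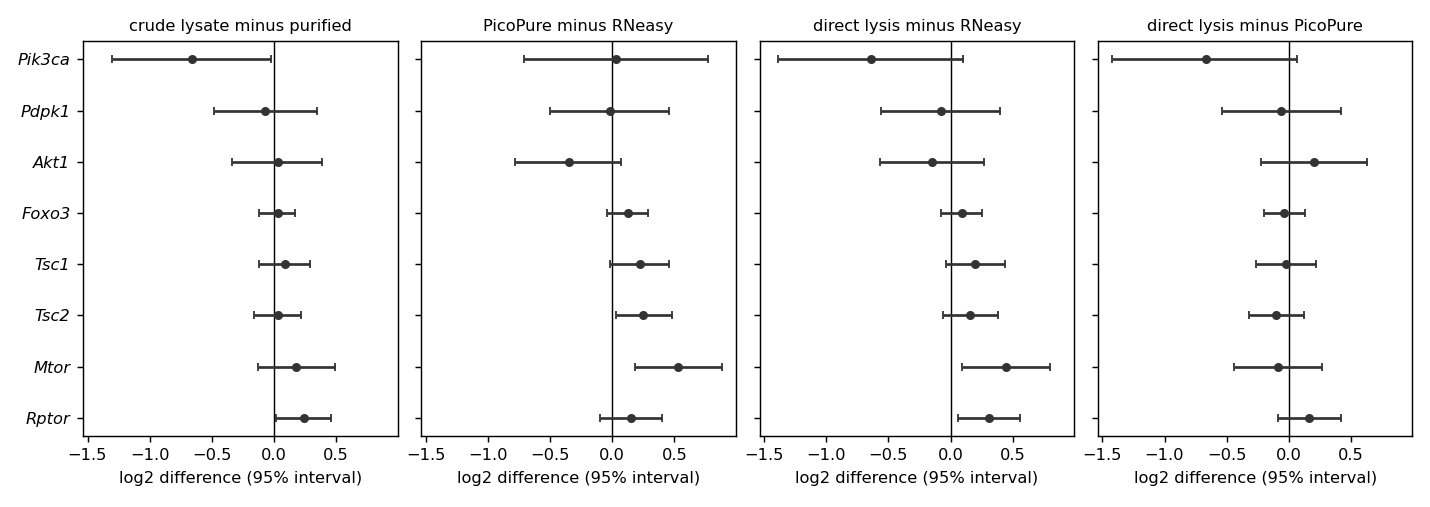
Differences in log2 expression for the 8 genes in 4 comparisons of preparations, with limma's 95% intervals (bars) that are not adjusted for the number of genes. For PicoPure minus RNeasy the intervals of Mtor (0.18 to 0.88) and Tsc2 (0.03 to 0.48) lie above 0. For crude lysates minus column-purified RNA that of Pik3ca lies just below 0 (-1.30 to -0.02) and that of Rptor just above it (0.02 to 0.46). For direct lysis minus RNeasy those of Mtor (0.09 to 0.80) and Rptor (0.06 to 0.56) lie above 0. The other intervals include 0, and no difference passed after adjustment.

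Set against all genes, the counts of the 8 were as follows. In crude lysates against column-purified RNA 0 of 8 passed over all genes, where 1.01% of genes did, and 2 of 8 had an unadjusted p under 0.05 (Pik3ca, lower, and Rptor, higher), where 14.2% did. The arrays of 0 of the 8 lay apart there, where 8.02% of all genes did. For PicoPure against RNeasy the counts were 0, where 0.0602% of genes passed, and 2 (Tsc2 and Mtor, both higher), where 7.98% had such a p. Tsc1, Tsc2 and Mtor were the 3 whose PicoPure and RNeasy arrays did not overlap, all higher with PicoPure, where 6.92% of all genes were. Direct lysis against RNeasy gave 0, with 0.436% of genes passing, and 2 (Mtor and Rptor), with 13.4%. Mtor was the gene whose arrays did not overlap there, and 7.97% of all genes were higher without overlap. Direct lysis against PicoPure gave 0 by both counts, with 0.597% and 12.3% of genes. The moderated F over all preparations gave 0, with 0.637% of genes passing, and 1 (Mtor, unadjusted p = 0.0184), with 12.8%. The 8 genes had a median difference of 0.14 in PicoPure against RNeasy, beside -0.03 over all genes, and of 0.03 in crude lysates against column-purified RNA, beside 0.00.

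The spread between oocytes prepared alike was not shared by the 8 genes. Their median pooled SD was 0.168, taken with Tsc2 (0.11) and Rptor (0.13), which were not above background on all arrays. The 8597 genes above background on all arrays, a set without them, had a median of 0.193, so the medians are over unlike sets. Within that set Pik3ca (0.44), Pdpk1 (0.28) and Akt1 (0.25) were above 0.193. Mtor (0.20) was close to it, and Tsc1 (0.13) and Foxo3 (0.07) were below it. For Pik3ca and Pdpk1 most of the spread came from direct lysis, with SDs of 0.66 and 0.46. Mtor was the reverse, with 0.04 in direct lysis, 0.21 with PicoPure and 0.28 with RNeasy.

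Some deposited values were exactly identical between arrays, within or across preparations. Foxo3, the gene with the narrowest spread, had no such tie. Mtor held the same value, to the last digit, on the arrays of direct lysis replicate 3 and PicoPure replicates 1 and 2. Rptor did so on direct lysis replicate 2, PicoPure replicate 2 and RNeasy replicate 1, Tsc1 on direct lysis replicate 1 and RNeasy replicate 2, and Pdpk1 on PicoPure replicates 2 and 3. At least 1 such tie was present for 4 of the 8 genes and for 10947 of all 19938 genes (54.9%), and no pair of arrays was identical as a whole. The cause of the ties was not tested.

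**Figure D3:**
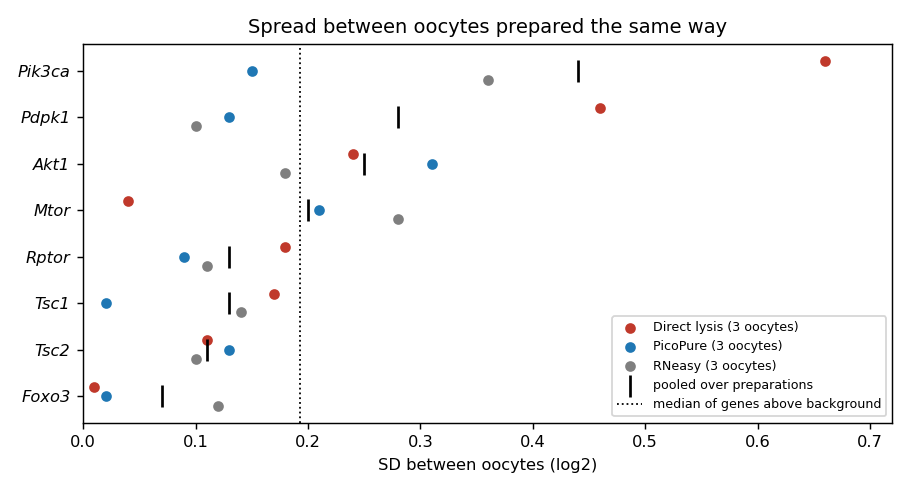
Standard deviation of log2 expression between the 3 oocytes of each preparation (coloured points) and pooled over preparations (black bars), with genes in order of the pooled value. The dotted line is the median of 8597 genes above background, 0.193. Pik3ca has the widest spread (0.44) and Foxo3 the narrowest (0.07).

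The wider pathway was described with 96 further genes in 11 roles, of which 93 were analysed here. Of the 93, 64 (68.8%) exceeded background on every array, where 43.1% of all genes did, and 13 on none. In crude lysates against column-purified RNA 1 was lower and 0 higher (limma, adjusted p under 0.05), the PI3K regulatory subunit gene Pik3r1, where 1.01% of all genes passed. An unadjusted p under 0.05 was found for 20 of the 93 (21.5%) there, and for 14.2% of all genes. The level of Pik3r1 was 11.01, 10.99 and 11.11 in crude lysates, 11.48, 11.49 and 11.43 with PicoPure, and 11.38 on each RNeasy array. Crude lysates differed from column-purified RNA by -0.39 ± 0.05 (SE; limma, adjusted p = 0.0206). The RNeasy values, equal after rounding (SD 0.0), lower the spread behind this SE. The call was lost in 7 of 16 alternatives, among them without direct lysis replicate 2, PicoPure replicate 1 or 2, or RNeasy replicate 1 or 2, where the adjusted p ran from 0.0524 to 0.0667. Pik3r1 differed by -0.43 ± 0.06 between direct lysis and PicoPure (adjusted p = 0.031, lost in 10 of 16 alternatives), and its moderated F had an adjusted p of 0.0464. Direct lysis against PicoPure called 2 genes of the 93, both lower, where 0.597% of all genes passed, and 11 (11.8%) had an unadjusted p under 0.05, where 12.3% of all genes did. The other, beside Pik3r1, was Inpp5d, a phosphatase that removes a phosphate from the product of PI3K, with 8.07, 8.26 and 8.0 in direct lysis and 8.71, 8.90 and 8.69 with PicoPure (-0.66 ± 0.10, SE; adjusted p = 0.0374; F adjusted p = 0.0401). RNeasy held 7.97, 8.10 and 8.15 for Inpp5d, beside which PicoPure was higher by 0.69 (adjusted p = 0.0928). Of the single arrays left out in turn, direct lysis replicate 2 alone left the Inpp5d call in place, and without the others its adjusted p reached 0.136. No gene of the 93 was called by limma for PicoPure against RNeasy, where 8 (8.6%) had an unadjusted p under 0.05 beside 7.98% of all genes. None was called for direct lysis against RNeasy either, where 21 (22.6%) had one beside 13.4% of all genes.

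Among receptors and adaptors, 3 of 7 genes exceeded background on all arrays and 0 passed. Kit, the oocyte's receptor for Kit ligand, had 11.50 ± 0.02 with direct lysis, 11.55 ± 0.06 with PicoPure and 11.35 ± 0.08 with RNeasy (SD, n = 3 each), and Igf1r, an insulin-like growth factor receptor, had 8.34, 8.20 and 8.11. The other PI3K subunits were present for 9 of 10 genes. Pik3c2a, a class II PI3K, was at 9.91 ± 0.42 in crude lysates and 10.91 ± 0.30 in column-purified RNA (limma, difference -1.0, adjusted p = 0.107). Of 6 lipid and Akt phosphatases 2 exceeded background on all arrays, and Phlpp2, an Akt phosphatase, had 8.28, 8.31 and 8.22 by preparation in the same order. Of 3 other Akt and Sgk kinases the one above background on all arrays was Akt2. It varied widely between oocytes prepared alike, at 9.94, 11.33 and 10.59 with direct lysis, 10.59, 10.90 and 10.54 with PicoPure and 9.83, 11.44 and 9.28 with RNeasy. Among other FoxO factors and Akt substrates 5 of 8 were above background on all arrays. Gsk3a, a glycogen synthase kinase, had 10.35 ± 0.04 in crude lysates and 10.65 ± 0.23 in column-purified RNA, and Akt1s1, an inhibitor of mTOR complex 1, had 9.11 and 9.0 (adjusted p = 0.316 and 0.721, limma).

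Around the mTOR complexes, Rheb, the GTPase that activates mTOR complex 1, had 10.88 ± 0.20 with direct lysis, 11.20 ± 0.24 with PicoPure and 11.57 ± 0.29 with RNeasy (SD, n = 3 each; F adjusted p = 0.281, limma). Rheb thus had its highest mean with RNeasy, the preparation in which Mtor had its lowest. Neither gene passed, and the Rheb values of PicoPure and RNeasy overlapped. A relation between Rheb and Mtor was not tested. Tbc1d7, the third subunit of the Tsc complex, was singled out after its values were seen. It had 8.07, 8.31 and 9.21 with direct lysis, 8.52, 8.76 and 7.58 with PicoPure and 6.09, 8.56 and 5.81 with RNeasy, where 2 of the 3 oocytes were below background and the third was not (PicoPure minus RNeasy 1.47 ± 0.72, SE; adjusted p = 0.666). Rictor, the defining subunit of mTOR complex 2, had 10.02, 10.15 and 10.41 in crude lysates and 10.58 to 10.79 in column-purified RNA, a difference of -0.48 ± 0.09 (adjusted p = 0.0664), and Prr5l, a binding partner of that complex, had 8.19 ± 0.47 and 8.75 ± 0.37 (adjusted p = 0.393). Of 21 genes of the Rag GTPases, Ragulator and amino acid sensing, 15 exceeded background on all arrays and 0 passed. Seh1l had 10.52, 8.70 and 8.15 in crude lysates and 10.50 to 10.96 in column-purified RNA, so that 2 of 3 lysates were low (adjusted p = 0.183). Nprl2, a subunit of a complex that restrains mTOR complex 1, had 9.37 ± 0.25 in crude lysates and 10.07 ± 0.44 in column-purified RNA (adjusted p = 0.264).

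Downstream, 8 of 9 genes of S6 kinase and translation exceeded background on all arrays. Eef2k, a kinase that slows translation elongation and is inhibited by S6 kinase, had 10.93 ± 0.09 with direct lysis, 11.10 ± 0.28 with PicoPure and 10.45 ± 0.10 with RNeasy. Its 3 RNeasy oocytes lay below the other 6 (F adjusted p = 0.163, limma). Eef2k was named for its small F p, and the share of all genes with this order was not counted. For PicoPure against RNeasy alone, 10 of the 93 genes were higher without overlap, where 6.92% of all genes were. A further 8 of the 93 were lower without overlap, and the share of all genes lower in this way was not counted. Larp1, an mRNA-binding target of mTOR complex 1, had 8.36 ± 0.10 in crude lysates and 8.06 ± 0.10 in column-purified RNA (adjusted p = 0.125). Of 10 energy-sensing genes 9 exceeded background on all arrays, and both beta subunits of the AMP-activated kinase are named. Prkab1 had 11.72 ± 0.01, 11.39 ± 0.30 and 10.58 ± 0.74 with direct lysis, PicoPure and RNeasy (SD, n = 3 each). Prkab2 had 7.70 ± 0.21, 7.83 ± 0.12 and 8.17 ± 0.09, with the means in the opposite order (limma, F adjusted p = 0.319 and 0.231). For Prkab1 the PicoPure and RNeasy oocytes overlapped, and for Prkab2 the directly lysed and PicoPure ones did. FoxO target genes known from other cells exceeded background on all arrays for 6 of 10. In crude lysates against column-purified RNA, 6 of all 10 were higher and 4 lower, with a median difference of 0.04. Among the 4, the cell death gene Bcl2l11 had 7.70 ± 0.41 in crude lysates and 8.36 ± 0.32 in column-purified RNA. Its crude lysate values were 7.42, 8.17 and 7.50, where background ran from 7.23 to 7.29. The cyclin gene Ccng2, also lower, had 8.61 ± 0.25 and 8.92 ± 0.26 (limma, adjusted p = 0.257 for Bcl2l11 and 0.402 for Ccng2).

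**Figure D4:**
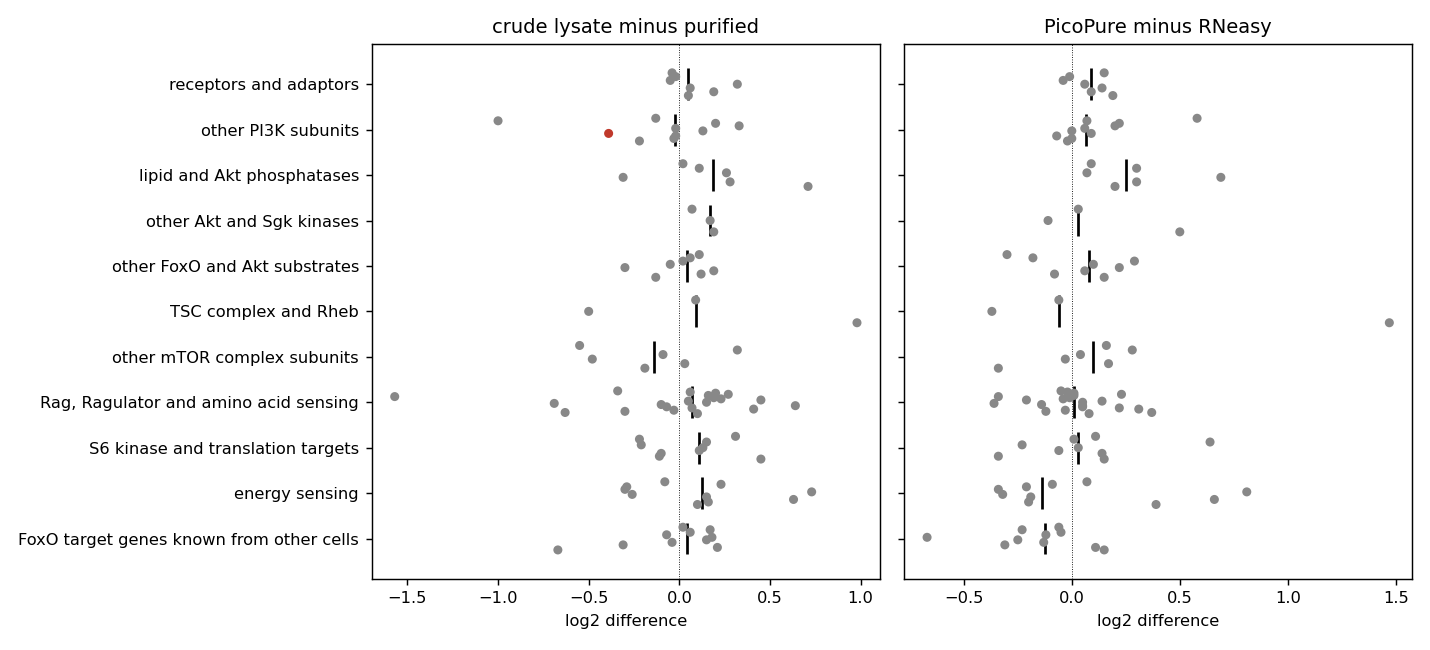
Differences in log2 expression of 93 further pathway genes by role (points) for crude lysates minus column-purified RNA (left) and PicoPure minus RNeasy (right), with the median of each role as a black line. Pik3r1 (red, -0.39) is the 1 gene with an adjusted p under 0.05, and role medians lie between -0.14 and 0.25.

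The genes whose pattern over the 9 arrays was most like each of the 8 were found by the root-mean-square difference between profiles centred on their own means, over genes above background on all arrays. The nearest gene lay at 0.04 to 0.122 log2 units, where the genes' own profiles had a root mean square of 0.078 to 0.478. For Pik3ca the nearest were Plek (0.104) and Kdm5c (0.164). Plek had 8.85, 9.80 and 10.09 in crude lysates and 10.09 to 10.54 in column-purified RNA, with the same directly lysed oocyte lowest. Pdpk1 was nearest to Bckdhb and AU016765, Akt1 to Zar1l and Rassf1, and Foxo3 to Mtus1 and Cep95. Tsc1 was nearest to Abhd11 and Mrps2, Tsc2 to B4galt6 and Polr2c, Mtor to Reep6 and Sulf2, and Rptor to Clpx and Pcif1. With 8596 or 8597 genes searched over 9 arrays, the likeness is a description with no test.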

How the data were processed

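The deposited table holds the authors' log2 expression values for 35556 rows and 9 arrays. Per the submitters' processing notes, which give no version or order, the tools were GCRMA, GCOS and Affymetrix Expression Console. The log2 scale was read from the values (2.41 to 13.90), and the genome build was not given in the sources used here. Of the rows, 21789 had 1 gene symbol, 1621 several and 12146 none. For 999 genes with several such rows the row with the highest mean was used, and each of the 8 genes had 1 row. No level filter or new normalization was applied.

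The fit used lmFit and eBayes of limma 3.58.1 (R 4.3.3), in 1 fit over 9 arrays and 3 preparations with 6 residual degrees of freedom, two-sided, with Benjamini-Hochberg adjustment over 19938 genes. Tested on simulated data with 200 of 19938 genes changed by 1 log2 unit, the fit recovered 79.5% for PicoPure against RNeasy and 70.5% for crude lysates against column-purified RNA. The simulated noise was normal and held no ties. Recovery of changes smaller than 1 log2 unit, as were all differences of the 8 genes, was not tested. The genes and lists were chosen with earlier results of these data known. All 8 genes were named, with pathway genes past the threshold, up to 2 per role with the smallest F p among genes above background on all arrays, and the 2 nearest profiles per gene. The alternatives were a level filter, quantile normalization, median centring, values raised to background, trend and robust eBayes, mean of rows, other background levels, the replicate number as a block and each array left out. The number of arrays limits the precision.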

Additional observations from a re-analysis of the deposited data

How the results depend on the processing

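None of the 8 genes was called in any of 16 alternatives for each of 4 differences (512 values, smallest adjusted p = 0.105 by limma, for Tsc2 in PicoPure against RNeasy with values raised to background, where the median of all genes moved to -0.15 and 8894 genes had an unadjusted p under 0.05), and the alternatives for direct lysis against each kit, and for Pik3r1 and Inpp5d, were added after seeing the data. Of the 512, 24 changed sign, and the cause was not tested. Under a further quantile normalization Pdpk1 was 0.07 for crude lysates against column-purified RNA, 0.03 against RNeasy and 0.11 against PicoPure, Pik3ca was -0.06 for PicoPure against RNeasy, and direct lysis against PicoPure gave 0.16 for Foxo3, 0.18 for Tsc1 and 0.11 for Mtor. With single arrays left out, crude lysates against column-purified RNA ran from -0.24 to 0.19 for Pdpk1, -0.10 to 0.14 for Akt1, -0.00 to 0.16 for Tsc1 and -0.03 to 0.07 for Tsc2. PicoPure against RNeasy ran from -0.08 to 0.24 for Pik3ca and -0.06 to 0.05 for Pdpk1. Direct lysis against RNeasy ran from -0.25 to 0.18 for Pdpk1, and against PicoPure from -0.23 to 0.20 for Pdpk1, -0.12 to 0.05 for Tsc1 and -0.15 to 0.03 for Mtor. Of the 8 genes, 6 exceeded background on all arrays, against 8 with the 90th percentile of receptors and 7 with the all-gene median in its place. Pathway genes called for crude lysates against column-purified RNA numbered 1, against 0 with quantile normalization and 0 to 2 with single arrays left out (2 without direct lysis replicate 1 or 3, and 0 without direct lysis replicate 2, PicoPure replicate 1 or 2, or RNeasy replicate 1 or 2). Over all genes the count for this comparison was 201 (68 higher, 133 lower), against 158 (75 and 83) with quantile normalization and 24 to 232 with single arrays left out, at most 116 without any 1 PicoPure or RNeasy array. For PicoPure against RNeasy it was 12, against 0 with trend and robust eBayes (1595 at an unadjusted p under 0.05) and 0 to 15 with single arrays left out, under 9 without any array other than direct lysis replicates 2 and 3.

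The replicate numbers are shared between preparations but no label says that they pair oocytes. Deviations from group means correlated at -0.07 to 0.12 over 9 same-numbered pairs, and at -0.09 to 0.14 over differently numbered pairs. With the replicate block PicoPure against RNeasy called 0 genes (1549 at an unadjusted p under 0.05) and crude lysates against column-purified RNA 25, with 0 pathway genes in each. Signal over background limits what can be read for Tsc2 and Rptor.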
